A study of Mus musculus with 6 samples.

Results

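PRC1.6 is a form of polycomb repressive complex 1 that holds back germline and meiotic genes, and 9 genes for its subunits were read in ovaries from Ctrl and *Srsf1* cKO mice. The genes were chosen by name, as *Mga*, *Max*, *E2f6*, *L3mbtl2*, *Pcgf6*, *Ring1*, *Rnf2*, *Rybp* and *Cbx3*, and each name was found once among the 54532 genes of the deposited table. All 9 were above the minimum used for testing, a mean FPKM (reads scaled to gene length and library size) of at least 0.5, as were 17180 genes in all. RNA of whole ovaries at 16.5 dpc was sequenced in 3 Ctrl and 3 cKO libraries from C57BL/6 mice. In cKO mice (*Stra8-GFPCre Srsf1* Fl/Fl), Cre under the germ-cell gene *Stra8* removes floxed exons of *Srsf1*, so the deletion is directed to germ cells while somatic cells of the ovary keep the gene. The labels give the Ctrl genotype as wild type and do not say whether Ctrl mice carry a floxed allele, or whether ovaries were pooled. The protocol text of the labels names retina, but the lowest FPKM in any library was 47.5 for *Foxl2* and 66.4 for *Wt1*, both markers of ovarian somatic cells, and 13.1 for the germ-cell marker *Ddx4*.

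In PRC1.6, MGA pairs with MAX and binds E-box letters, and MGA also carries a T-box domain. E2F6 pairs with a DP protein and binds E2F sites, so these proteins bring the complex to its promoters. L3MBTL2 and PCGF6 hold it together, RING1 and RNF2 are alternative ligases that put ubiquitin on histone H2A, RYBP stimulates that ligase, and CBX3 is the heterochromatin protein HP1γ. Loss of the complex in embryonic stem cells releases genes of germ cells and of meiosis, and in the fetal ovary the RNF2-containing complexes are known to delay the onset of meiosis, which *Stra8* and *Meiosin* start.

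Promoters of genes that PRC1.6 is known to hold back are shown for the letters that its DNA-binding subunits are known to read. The 250 bases before the start of 4 such genes and of *Stra8* are given below from RefSeq (GRCm38.p6), 5′ to 3′ on the strand of the gene, with the E-box (CACGTG) and the E2F letters (TCCCGC, read on either strand) in capitals. *Sycp3* builds the chromosome axis, *Slc25a31* is a germ-cell ATP carrier of mitochondria, and *Stag3* and *Smc1b* are cohesin subunits of meiosis.
Sycp3 (chr10:88459337-88459586, plus strand): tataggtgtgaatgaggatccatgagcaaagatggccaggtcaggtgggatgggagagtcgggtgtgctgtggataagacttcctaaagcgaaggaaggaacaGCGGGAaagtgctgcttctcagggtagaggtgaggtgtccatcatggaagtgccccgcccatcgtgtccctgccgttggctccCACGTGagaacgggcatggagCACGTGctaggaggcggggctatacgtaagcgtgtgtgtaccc
Slc25a31 (chr3:40708621-40708870, plus strand): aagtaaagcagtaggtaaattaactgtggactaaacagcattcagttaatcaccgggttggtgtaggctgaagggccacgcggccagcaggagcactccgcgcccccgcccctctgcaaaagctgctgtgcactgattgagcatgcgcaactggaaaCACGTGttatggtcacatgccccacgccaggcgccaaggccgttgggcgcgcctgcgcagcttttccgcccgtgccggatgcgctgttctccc
Stag3 (chr5:138280259-138280508, plus strand): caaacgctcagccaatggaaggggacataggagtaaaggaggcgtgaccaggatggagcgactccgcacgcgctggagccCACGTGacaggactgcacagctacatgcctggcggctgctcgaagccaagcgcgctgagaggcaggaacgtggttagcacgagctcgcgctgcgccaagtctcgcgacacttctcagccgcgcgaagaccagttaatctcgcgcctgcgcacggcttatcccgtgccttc
Smc1b (chr15:85131958-85132207, minus strand): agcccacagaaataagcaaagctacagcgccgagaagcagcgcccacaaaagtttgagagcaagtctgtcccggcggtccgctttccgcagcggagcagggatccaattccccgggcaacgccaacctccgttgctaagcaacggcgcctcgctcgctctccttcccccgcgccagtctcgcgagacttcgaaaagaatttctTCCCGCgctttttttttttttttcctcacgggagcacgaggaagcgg
Stra8 (chr6:34920698-34920947, plus strand): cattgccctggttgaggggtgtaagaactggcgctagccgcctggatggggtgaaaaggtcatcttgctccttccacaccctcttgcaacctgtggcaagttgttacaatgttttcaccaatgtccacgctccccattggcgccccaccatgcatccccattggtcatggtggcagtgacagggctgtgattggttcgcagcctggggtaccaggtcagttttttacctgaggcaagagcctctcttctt
*Sycp3* holds an E-box at 64 and at 43 bases before its start and E2F letters at 147. *Slc25a31* and *Stag3* hold an E-box each, and *Smc1b* holds E2F letters at 47 bases before its start. The *Stra8* window holds neither, and its only match among the letters searched is the T-box letters GGTGTG, read on either strand, at 176 bases before the start. *Sycp3* holds these T-box letters as well, at 246 and 189 bases before its start. The *Stra8* window precedes the RefSeq start but lies inside the gene of the deposited annotation, which begins at 34920163. The *Stag3* window with its E-box likewise lies inside the deposited gene, which begins at 138280240. Bases before those 2 positions were not searched. Of 23 genes listed from general knowledge as PRC1.6 targets, 21 had a window, and 11 of these (52.4%) held an E-box and 8 (38.1%) the E2F letters. Over all 27025 genes with windows of this length, these shares were 6.86% and 18.8%. T-box letters were found in 5 of the 21 windows (23.8%) and in 18.3% of all genes. Of the 9 subunit genes, 8 had a window, and 0 of these held an E-box, 2 (*Rnf2* and *E2f6*) held E2F letters and the same 2 held T-box letters. A match of letters is not a binding site that was measured here.

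All subunit genes were expressed in these ovaries, at mean FPKM over the 6 libraries from 5.24 to 31.5. *Rnf2* was the highest at 31.5, above 90.4% of the genes tested. It was followed by *Pcgf6* (19.7), *Max* (17.7), *Cbx3* (17.2), *Ring1* (14.9), *Mga* (14.7), *Rybp* (11.9), *E2f6* (11.5) and *L3mbtl2* (5.24). *Rnf2* was above *Pcgf6*, and *E2f6* above *L3mbtl2*, in 6 of 6 libraries with no overlap of their ranges. The ranges of each other pair of neighbours overlapped, and their order held in 3 or 4 of 6 libraries. FPKM compares genes per length, and the place of *Pcgf6* depends on the 2098 bases the table gives it, since its exons span 5027 bases in GENCODE M21, while start, end and exon length of the other 8 genes matched that annotation. Each gene's value sums all of its transcript forms, and whole ovaries mix germ cells with somatic cells, so that fewer cells of a type and less RNA per cell cannot be told apart.

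Of the 9 subunit genes, 0 passed an unadjusted p of 0.05 in limma between cKO and Ctrl ovaries. The study set the same limit on another test, DESeq2, which was not run here, so its calls can differ from these. Over all genes tested, 4.43% passed this limit in limma, 2.68% higher and 1.75% lower in cKO. After Benjamini-Hochberg adjustment, 0 genes passed 0.05 in limma, and 0 with limma voom on the reads recovered from FPKM. The targeted gene *Srsf1* had an FPKM of 80.2, 70.1 and 63.1 across Ctrl libraries and 32.4, 37.0 and 36.4 across cKO libraries. Its log2 fold change on log2(FPKM + 1) was -0.99 with a standard error of 0.13, which includes RNA of cells that keep the gene. The libraries held between 14212164 and 16784241 reads on genes. The library size that FPKM divides by was 0.965, 1.03 and 1.04 times these reads in Ctrl libraries 1, 2 and 3. In cKO libraries 1, 2 and 3 it was 0.992, 1.00 and 0.999 times these reads, and the cause was not tested. The log2 fold change was above 0 for 8 of the 9 subunit genes and for 47.9% of all genes tested, with medians of 0.08 and -0.01. With the library size set to the reads on genes, *Max*, *Ring1* and *Rybp* turned to -0.01 each. These 3 also changed sign in some fits that left out a library, as did *E2f6*, *Pcgf6* and *Cbx3*. The sign of these genes is thus not a result, and only *Mga*, *L3mbtl2* and *Rnf2* kept theirs in every fit.

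**Figure D1:**
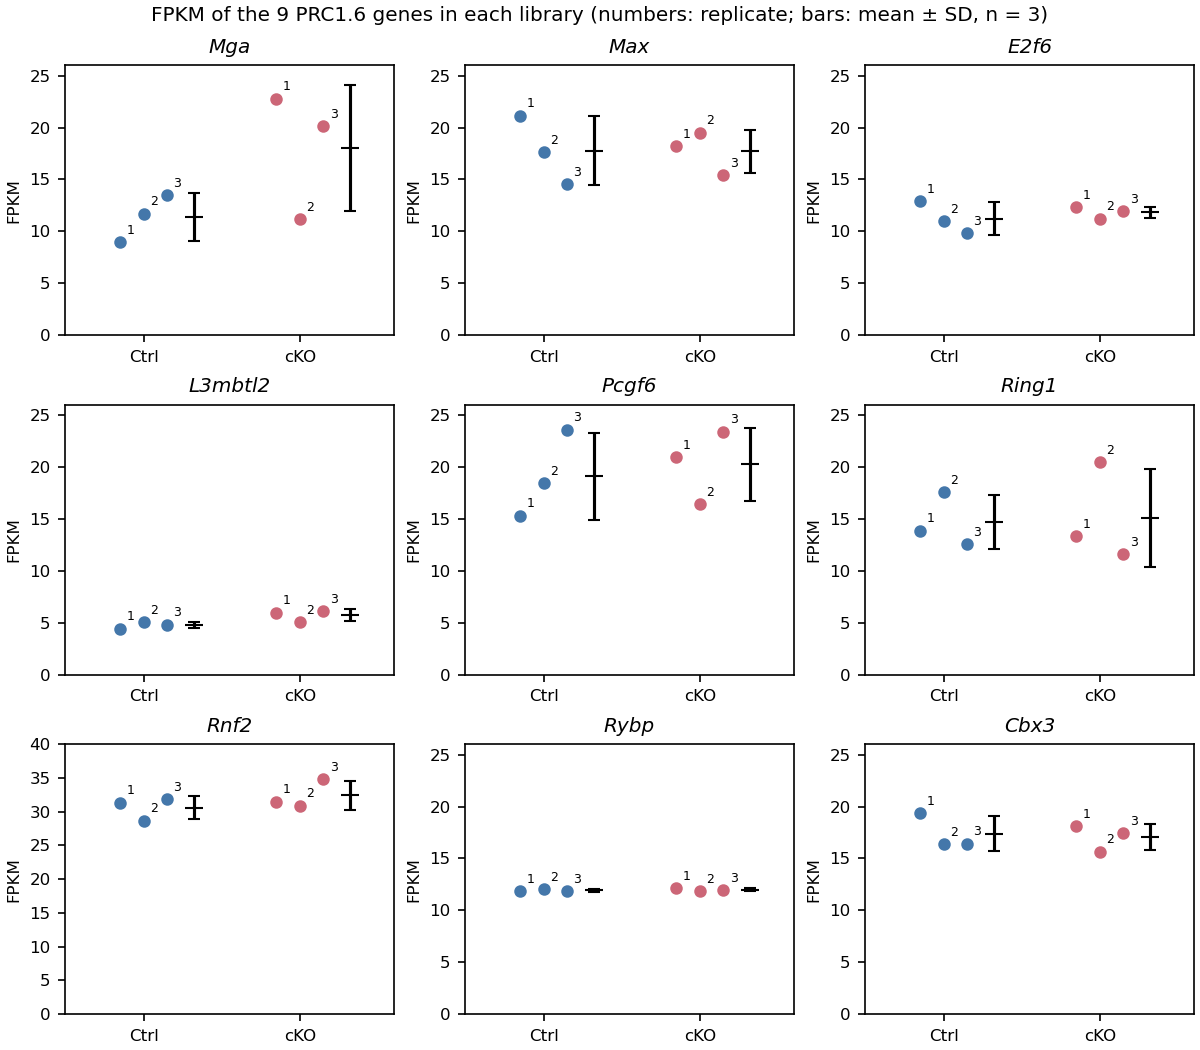
FPKM (vertical axes, from 0) of the 9 PRC1.6 genes in the 3 Ctrl and 3 cKO libraries, with the replicate number beside each point and the mean ± SD (n = 3) as a bar; *Rnf2* has a longer axis. *Mga* lay between 8.97 and 22.8 with cKO 2 inside the Ctrl range, and *Rybp* between 11.8 and 12.1 in every library.

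Among the DNA-binding subunits, *Mga* showed the largest difference. *Mga* (ENSMUSG00000033943, chromosome 2 of GRCm38, 119897228 to 119969581) encodes the scaffold that gives the complex its E-box and T-box binding. Its FPKM was 8.97, 11.7 and 13.5 across Ctrl libraries 1, 2 and 3 and 22.8, 11.2 and 20.1 across cKO libraries 1, 2 and 3. Both cKO 1 and cKO 3 lay above every Ctrl library, while cKO 2 lay within the Ctrl range. Ctrl ovaries averaged 11.4 ± 2.28 (SD, n = 3) and cKO ovaries 18.02 ± 6.08, for a log2 fold change of 0.58 (95% interval -0.08 to 1.24). The unadjusted p in limma was 0.0755 and the adjusted p 0.978. An exact permutation test (two-sided) gave 0.3, where 3 libraries against 3 allow no p under 0.1. Without cKO 2, the log2 fold change was 0.87 with an unadjusted p of 0.00381 and an adjusted p of 0.21, in a fit where 14.5% of all genes passed the unadjusted limit. Without any other library, it stayed between 0.39 and 0.70 and did not pass. Leaving out Ctrl 1, 2 or 3 gave 3.64%, 2.12% or 6.85% of all genes past the limit, and leaving out cKO 1 or 3 gave 2.57% or 2.47%, with 0 subunit genes among them.

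*Max* (ENSMUSG00000059436, chromosome 12, 76937269 to 76962201), the partner of MGA and also of the MYC proteins, had an FPKM of 21.1, 17.6 and 14.5 across Ctrl libraries and 18.2, 19.5 and 15.4 across cKO libraries. The groups overlapped, with a log2 fold change of 0.00 (95% interval -0.39 to 0.40). *E2f6* (ENSMUSG00000057469, chromosome 12, 16810963 to 16839742) had 12.9, 11.0 and 9.80 across Ctrl libraries and 12.3, 11.2 and 11.9 across cKO libraries, a log2 fold change of 0.08 (-0.24 to 0.39). All 3 cKO values of *E2f6* lay within the Ctrl range.

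On the deposited FPKM, *L3mbtl2* was the only subunit gene whose groups did not overlap, where 8.68% of all genes tested did not, 4.59% with cKO above Ctrl. *L3mbtl2* (ENSMUSG00000022394, chromosome 15, 81663889 to 81688315) had an FPKM of 4.44, 5.04 and 4.80 across Ctrl libraries and 5.96, 5.06 and 6.12 across cKO libraries. The lowest cKO library, cKO 2, lay just above the highest Ctrl library, Ctrl 2. Per read on genes this order was reversed, with 485 of 15726253 reads in Ctrl 2 and 505 of 16784241 in cKO 2. The groups thus overlapped with the library size set to the reads on genes. The log2 fold change was 0.22 (95% interval -0.08 to 0.52), with an unadjusted p of 0.125 and an adjusted p of 0.978 in limma. It was 0.29 without cKO 2, where the unadjusted p was 0.0474 and the adjusted p 0.339. Exons of *L3mbtl2* share 1023 of 5945 bases with *Chadl* on the other strand. *Chadl* had a mean FPKM of 1.59 and a log2 fold change of 0.05. The pseudogene *Gm18284* lies in the other direction within *L3mbtl2* but shares 0 exon bases with it. *Gm18284* had a mean FPKM of 1.27 and a log2 fold change of -0.54, lower in cKO at an unadjusted p of 0.041 in limma, though its groups overlapped. The sources used here do not give whether counting used strand.

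*Pcgf6* (ENSMUSG00000025050, chromosome 19, 47033619 to 47050845), the subunit that marks this form of PRC1, had an FPKM of 15.3, 18.4 and 23.6 across Ctrl libraries and 20.96, 16.4 and 23.4 across cKO libraries. Values in both groups ran over nearly the same range, and the log2 fold change was 0.09 (95% interval -0.38 to 0.56). It was below 0 without Ctrl 1 or without cKO 3, at -0.05 and -0.02.

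Of the ligases, *Ring1* (ENSMUSG00000024325, chromosome 17, 34020792 to 34024680) had an FPKM of 13.9, 17.6 and 12.6 across Ctrl libraries and 13.3, 20.5 and 11.6 across cKO libraries. *Rnf2* (ENSMUSG00000026484, chromosome 1, 151458004 to 151500955) had 31.3, 28.7 and 31.8 across Ctrl libraries and 31.5, 30.9 and 34.9 across cKO libraries. *Ring1* was highest in Ctrl 2 and cKO 2 and *Rnf2* in cKO 3, with log2 fold changes of 0.01 (95% interval -0.53 to 0.56) and 0.08 (-0.18 to 0.34). *Rnf2* shares 158 exon bases with *Trmt1l* on the other strand, and the other annotated genes that lie within *Rnf2*, *Max* and *Rybp* share 0.

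*Rybp* (ENSMUSG00000072872, chromosome 6, 100228565 to 100287485) was the most even of the 9 genes. Its FPKM was 11.8, 12.1 and 11.8 across Ctrl libraries and 12.1, 11.9 and 11.9 across cKO libraries, a log2 fold change of 0.01 (95% interval -0.23 to 0.24). The spread over the 6 libraries was 1.04% of the mean, below the 3.34% that counting 802 to 980 reads gives by itself. On log2(FPKM + 1), this range ranked 1 of 17180 genes from the narrowest. This evenness depends on the library sizes of the deposited FPKM. Per read on genes *Rybp* varied more, with 842 of 15548757 reads in Ctrl 1 and 926 of 15726253 in Ctrl 2. Its rank with that library size was not computed. *Cbx3* (ENSMUSG00000029836, chromosome 6, 51470360 to 51483704) had 19.4, 16.4 and 16.4 across Ctrl libraries and 18.1, 15.7 and 17.4 across cKO libraries, a log2 fold change of -0.03 (-0.32 to 0.27). Reads of *Cbx3* could be split with its processed pseudogenes, of which the highest, *Cbx3-ps7*, had a mean FPKM of 0.611.

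**Figure D2:**
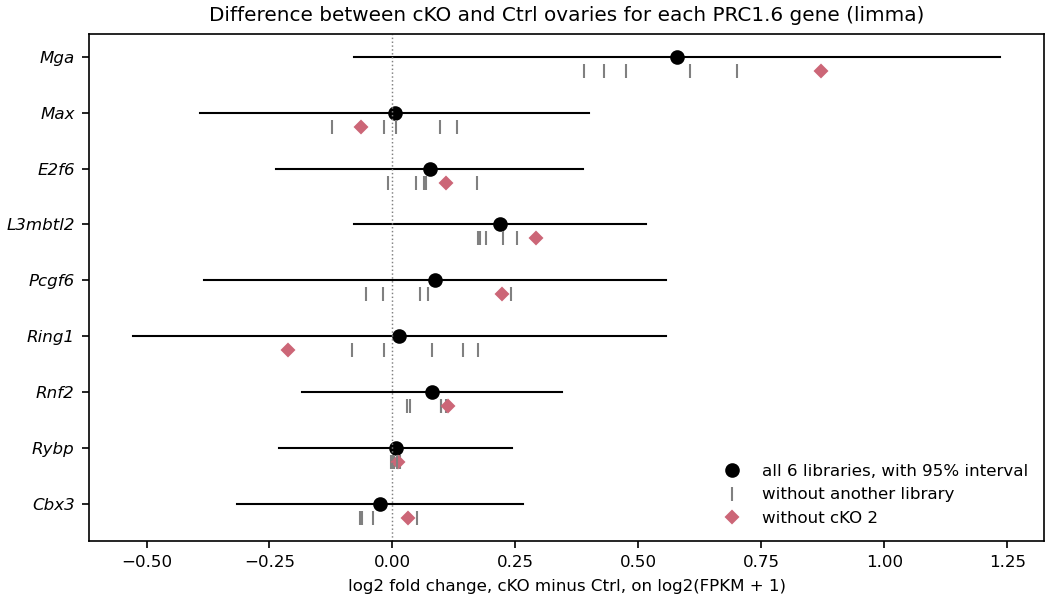
Log2 fold change of cKO over Ctrl ovaries on log2(FPKM + 1) for each PRC1.6 gene (horizontal axis), with all 6 libraries and the 95% interval of limma as a black point and line, without cKO 2 as a red diamond and without each other library as a grey bar. All 9 intervals include 0, and leaving out cKO 2 moves *Mga* from 0.58 to 0.87 and *Ring1* from 0.01 to -0.21.

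The 95% intervals, as folds on FPKM + 1, give the size of change in whole-ovary RNA that these libraries leave room for. They do not bound a change in germ cells alone, whose RNA is mixed here with that of somatic cells. For *Rybp*, *Cbx3*, *Rnf2* and *E2f6*, the fold of cKO over Ctrl lay between 0.803 and 1.31. For *Max*, *L3mbtl2*, *Pcgf6* and *Ring1*, the limits were 0.693 and 1.47, and for *Mga* 0.947 and 2.36. The sum of the 9 FPKM values was 139.2, 138.4 and 138.9 across Ctrl libraries 1, 2 and 3 and 155.3, 142.3 and 152.7 across cKO libraries 1, 2 and 3. With the library size set to the reads on genes, the Ctrl sums spread more widely and the groups overlapped. On the deposited FPKM, the mean sum was 138.9 in Ctrl and 150.1 in cKO, and the mean of *Mga* differed by more than that of any other of the 9 genes.

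The subunit genes differed in how they varied over the libraries. After each gene was centred on its mean over the 6 libraries, the root mean square difference between 2 profiles was smallest for *E2f6* and *Cbx3*, at 0.07 on log2(FPKM + 1), and largest for *Mga* and *Ring1*, at 0.63. *Mga* was at -0.59, -0.24 and -0.05 across Ctrl libraries 1, 2 and 3 and at 0.67, -0.30 and 0.50 across cKO libraries 1, 2 and 3. *Pcgf6* was at -0.32, -0.07 and 0.27 across Ctrl libraries and at 0.10, -0.23 and 0.26 across cKO libraries. Both were thus lowest in Ctrl 1 and cKO 2 within their groups, as was *L3mbtl2*. The mean of 10 germ-cell markers was at -0.89, -0.28 and 0.44 across Ctrl libraries and at 0.37, -0.32 and 0.67 across cKO libraries. The summed FPKM of these markers ran from 118.7 to 421.4 in Ctrl and from 205.1 to 554.8 in cKO, and no marker was at 0. Of the 10, *Dazl* and *Dppa3* passed the unadjusted limit, 2 in all and both higher. *Mga* and *Pcgf6* were nearest to the germ-cell mean, with root mean square differences of 0.27 and 0.33, and *Max* and *Ring1* farthest, at 0.69 and 0.73. This measure depends on how widely a gene varies as well as on its direction. *Pcgf6* and *Rnf2* were on the same side of 0 as the germ-cell mean in 6 of 6 libraries, and *Mga* and *L3mbtl2* in 5. The part of germ-cell content in the values of the subunit genes was not tested. *Ring1* was at -0.07, 0.25 and -0.20 across Ctrl libraries and at -0.13, 0.46 and -0.31 across cKO libraries, and the mean of 10 pregranulosa markers was at 0.07, -0.03 and -0.11 across Ctrl libraries and at -0.15, 0.24 and -0.02 across cKO libraries. None of the 10 pregranulosa markers passed the unadjusted limit, and their summed FPKM ran from 531.1 to 618.5 in Ctrl and from 526.0 to 705.8 in cKO. The mean of 6 endothelium markers was at 0.14, 0.03 and -0.15 across Ctrl libraries and at -0.003, 0.14 and -0.15 across cKO libraries. How like *Ring1* was to either list was not measured.

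**Figure D3:**
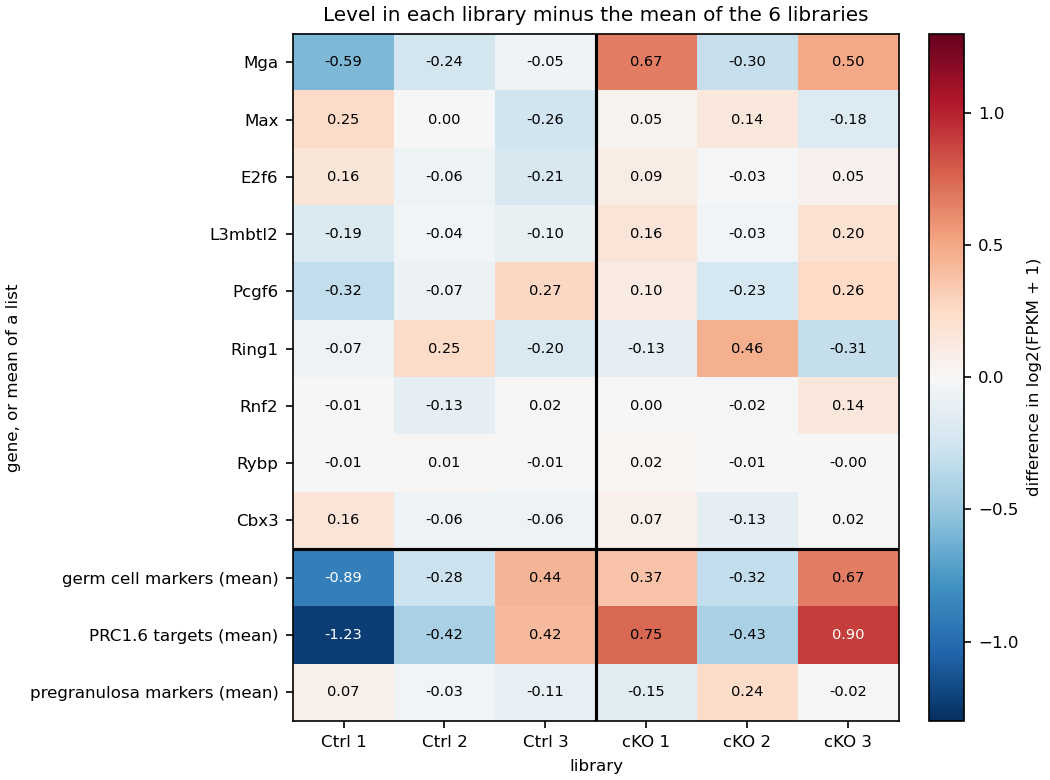
Level of each PRC1.6 gene, and mean level of germ-cell markers, PRC1.6 target genes and pregranulosa markers, in each library (columns) minus the mean of the 6 libraries, in log2(FPKM + 1), as colour and number. Germ-cell markers and target genes were lowest in Ctrl 1, as was *Mga*, and *Rybp* stayed within 0.02 of its mean.

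Among 9357 other genes whose mean FPKM reached 5, the mean profile of the 9 subunit genes was most like those of *Slc39a9*, *Amer1*, *Trappc12*, *Atf7* and *Msantd2*, with root mean square differences from 0.02 to 0.03 over 6 libraries.

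Subunits with paralogues were also read as a share of the summed FPKM of their family within each library. *Rnf2* made up 67.6% ± 5.05 (SD, n = 3) of the 2 ligase genes in Ctrl and 68.5% ± 7.61 in cKO, a difference of 0.859 percentage points (95% interval -13.8 to 15.5). *Rybp* made up 35.5% ± 1.598 of *Rybp* and *Yaf2*, a paralogue that can take its place, in Ctrl and 32.3% ± 2.98 in cKO, a difference of -3.21 points (-8.63 to 2.21). *Yaf2* itself had an FPKM of 22.5, 20.2 and 22.2 across Ctrl libraries and 22.7, 23.9 and 29.1 across cKO libraries. *Pcgf6* made up 24.6% ± 4.17 of the 6 *Pcgf* genes in Ctrl and 24.2% ± 3.20 in cKO, on the gene length the table gives. *Cbx3* was the least of the 3 HP1 genes, at 21.1% ± 1.299 and 21.2% ± 1.41.

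*E2f6* was the only one of these 5 genes whose share did not overlap between the groups. It was 6.92%, 8.83% and 10.1% of the 8 E2F genes across Ctrl libraries 1, 2 and 3 and 12.8%, 12.2% and 10.4% across cKO libraries 1, 2 and 3, a difference of 3.18 points (95% interval -0.07 to 6.43). The exact permutation test gave 0.1, the smallest p that 3 libraries against 3 allow, and 0.5 after adjustment over the 5 shares. The FPKM of *E2f6* itself overlapped between the groups, while the summed FPKM of the 7 other E2F genes ran from 87.5 to 173.5 in Ctrl and from 80.6 to 103.1 in cKO. *E2f2* had an FPKM of 35.1, 18.1 and 6.51 across Ctrl libraries and 2.69, 7.09 and 14.3 across cKO libraries. *E2f4* had 77.0, 45.0 and 26.6 across Ctrl libraries and 31.6, 30.2 and 36.1 across cKO libraries. *E2f8* had 15.8, 8.09 and 3.96 across Ctrl libraries and 2.70, 3.65 and 4.48 across cKO libraries. All 3 were highest in Ctrl 1, the library with the most FPKM on red blood cell markers, and their groups overlapped. Groups of *E2f1* and *E2f7*, 2 of the 7 other E2F genes, did not overlap and were lower in cKO, where 8.68% of all genes tested did not overlap. *E2f1* had 13.6, 12.4 and 12.0 across Ctrl libraries and 11.4, 10.6 and 8.91 across cKO libraries. The log2 fold change was above 0 for 1 of the 7, and for 47.9% of all genes tested. The mean of 9 red blood cell markers was at 1.15, -0.20 and -0.61 across Ctrl libraries and at -1.04, 0.33 and 0.37 across cKO libraries, and that of the 7 other E2F genes at 0.65, 0.20 and -0.16 across Ctrl libraries and at -0.40, -0.29 and 0.00 across cKO libraries. The summed FPKM of the red blood cell markers ran from 4861 to 22988 in Ctrl and from 1717 to 10421 in cKO. Of these 9 markers, 2 had a log2 fold change above 0, at a median of -0.71, and 1 (*Hbb-y*, higher) passed the unadjusted limit. The part of these markers in the E2F values was not tested.

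Genes around the complex were read from 6 further lists, of other PRC1.6 partners, other PRC1 proteins, PRC2 proteins, E2F factors, MAX partners, and HP1 and L3MBTL relatives. Of the 60 genes, 58 were tested and 2 of these (3.45%) passed the unadjusted limit, where 4.43% of all genes tested did. Of the 8 other partners (*Wdr5*, *Yaf2*, *Tfdp1*, *Tfdp2*, *Hdac1*, *Hdac2*, *Ehmt1* and *Ehmt2*), 0 passed, with log2 fold changes from -0.14 to 0.21 and a median of 0.08. Of 19 other PRC1 proteins, 1 passed and was higher in cKO, *Scmh1*, a polycomb protein with a log2 fold change of 0.29. Of 11 PRC2 proteins, 1 passed and was higher, *Jarid2*, which helps to bring PRC2 to its targets.

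*Jarid2* had an FPKM of 10.3, 11.4 and 12.4 across Ctrl libraries and 17.6, 12.8 and 18.1 across cKO libraries, with no overlap between the groups. In 4.59% of all genes tested, cKO lay above Ctrl without overlap. Per read on genes the groups of *Jarid2* overlapped, with 2097 of 16756795 reads in Ctrl 3 and 2081 of 16784241 in cKO 2. Its log2 fold change was 0.46 with a standard error of 0.16, an unadjusted p of 0.0248 and an adjusted p of 0.978 in limma. Like *Mga*, it was lowest among cKO libraries in cKO 2. *Scmh1* had 13.1, 13.7 and 15.5 across Ctrl libraries and 17.6, 16.5 and 18.3 across cKO libraries, also with no overlap. Neither passed the unadjusted limit without Ctrl 1, Ctrl 2, cKO 1 or cKO 3, where p lay between 0.0638 and 0.118, and *Scmh1* did not pass without the intensity trend (0.0512).
Of 7 other E2F genes, 10 MAX partners and 3 HP1 and L3MBTL relatives that were tested, 0 passed, with medians of -0.31, -0.12 and 0.03. The lowest p among the E2F genes was that of *E2f8*, at 0.0502 in limma before adjustment, and the list held 1 or 2 calls under some other settings.

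Genes that PRC1.6 is known to hold back were read beside its subunits. Of the 23 target genes, 5 (21.7%) passed the unadjusted limit, all higher in cKO ovaries with an adjusted p of 0.978 in limma, and 22 lay above 0 on the log2 scale, at a median of 0.73. Over all genes tested, 2.68% passed and were higher, and 47.9% lay above 0. Of the 10 germ-cell markers, 2 (20%) passed, both higher, and 8 lay above 0, at a median of 0.42. Whether the target genes differ from germ-cell genes in general was not tested. The list holds 6 of the germ-cell markers, and its mean was at -1.23, -0.42 and 0.42 across Ctrl libraries and at 0.75, -0.43 and 0.90 across cKO libraries, on the same side of 0 as the germ-cell markers in 6 of 6 libraries, and the part of these markers was not tested. *Tuba3a*, a germ-line tubulin gene with the near-identical copy *Tuba3b*, so that its count is uncertain, had an FPKM of 10.5, 7.78 and 20.3 across Ctrl libraries and 30.8, 26.7 and 68.5 across cKO libraries, a log2 fold change of 1.61. *Dazl*, an RNA-binding protein of germ cells, had 23.0, 39.1 and 80.0 across Ctrl libraries and 168.6, 56.8 and 219.2 across cKO libraries, where the groups overlapped (log2 fold change 1.6). *Stra8* had 2.96, 2.12 and 9.21 across Ctrl libraries and 17.5, 11.6 and 38.7 across cKO libraries, and *Gm4969*, which is *Meiosin*, had 9.004, 16.8 and 23.1 across Ctrl libraries and 83.7, 33.7 and 63.1 across cKO libraries. The log2 fold changes were 2.06 for *Stra8* and 1.82 for *Gm4969*, with no overlap between the groups. The cKO mice carry Cre under *Stra8*, and reads of the transgene could not be told apart from those of the gene. *Syce1* (log2 fold change 1.19) was the other gene that passed. *Dazl* and *Syce1* lost this call when Ctrl 1, Ctrl 2, cKO 1 or cKO 3 was left out, while *Stra8*, *Gm4969* and *Tuba3a* passed with each library left out.

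Of the target genes shown above, *Slc25a31*, *Stag3*, *Smc1b* and *Sycp3* did not pass, with log2 fold changes of 0.93, 0.53, 0.66 and 0.36 and groups that overlapped. With 1 library left out, these ran from 0.46 to 1.37 for *Slc25a31*, from 0.10 to 0.97 for *Stag3*, from 0.22 to 1.12 for *Smc1b* and from -0.13 to 0.82 for *Sycp3*. The lowest value of each was the one without Ctrl 1, and the highest that without cKO 2, or without Ctrl 3 for *Sycp3*. *Slc25a31* passed the limit without Ctrl 3 and without cKO 2, with an unadjusted p of 0.0381 and 0.0385 and an adjusted p of 0.725 and 0.32 in limma. The other 3 genes did not pass in any of the 6 fits that left out a library. The 11 target genes with an E-box in the window had a median log2 fold change of 0.49 and 0 past the limit, and the 10 without one had a median of 0.91 and 4 past the limit, all higher. These 4 were *Stra8*, *Tuba3a*, *Dazl* and *Syce1*, of which the last pair lost the call without Ctrl 1, Ctrl 2, cKO 1 or cKO 3. Among all genes tested that had a window, 1082 held an E-box, with a median of -0.02 and 21 higher and 16 lower past the limit. The 10157 without one had a median of -0.01, with 240 higher and 158 lower. The difference between target genes with and without an E-box was not tested.

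**Figure D4:**
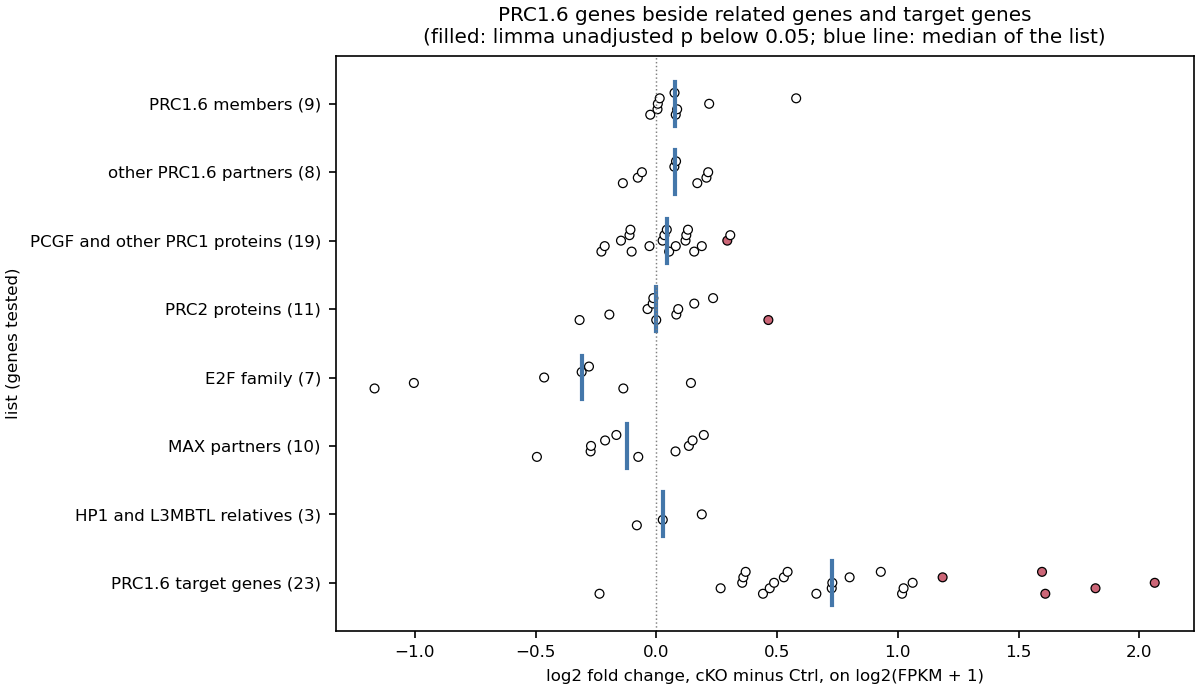
Log2 fold change of cKO over Ctrl ovaries on log2(FPKM + 1) (horizontal axis) for single genes (points) of the PRC1.6 list and of 7 related lists, with the genes tested in brackets, genes past an unadjusted p of 0.05 in limma filled and the median of each list as a blue line. The subunit genes have a median of 0.08 and the target genes one of 0.73.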

How the data were processed

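Total RNA of mouse ovaries at 16.5 dpc was sequenced in 3 Ctrl and 3 cKO libraries with paired-end reads. The authors purified poly(A) RNA, aligned reads with HISAT2 (version 2.0.5, mm10 per the labels), ran featureCounts on genes and deposited FPKM, in which reads are divided by gene length and library size. The sources used here give neither annotation release nor use of strand. Groups and replicate numbers came from sample titles, and the methods of the study call the libraries of a group biological replicates. FPKM multiplied by gene length gave whole reads within 0.05 of a read for 100% of values, between 14212164 and 16784241 reads per library. The library size that FPKM implies ran from 0.965 times these reads in Ctrl 1 to 1.04 times in Ctrl 3.

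Genes reaching a mean FPKM of 0.5 were compared on log2(FPKM + 1) with limma 3.58.1 in R 4.3.3 (genotype as the only term, intensity trend, two-sided). The fit was tested on simulated data. Tables were made in Python 3.11.15 (pandas 2.3.3, numpy 2.4.6), exact permutation tests with scipy 1.17.1 and figures with matplotlib 3.10.9. Promoter windows came from RefSeq (GRCm38.p6), and of 35 windows 29 matched a GENCODE M21 transcript in their last 20 bases after the start, which gave their orientation. The members and lists were chosen with earlier results of these data known. Named genes are the 9 members, *Srsf1*, listed genes past the unadjusted limit, the genes of the 5 shares, *Stra8*, *Gm4969*, *Slc25a31*, *Stag3*, *Smc1b*, the 5 genes most like the mean profile and genes that overlap a member. *Sycp3* was added for its promoter after its letters had been seen, and single markers and pseudogenes are named where a value rests on them. Macrophage, stroma, endothelium and mesonephros markers were read as well, and 0 genes of these lists passed the unadjusted limit. Alternatives were other pseudocounts, FPKM minima, scalings and variance models, voom, a replicate block and each library left out. A library size equal to the reads on genes was added after seeing the data.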

Additional observations from a re-analysis of the deposited data

How the results depend on the processing

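The number of subunit genes past an unadjusted p of 0.05 in limma was 0 under each alternative that kept all 6 libraries, and 0 to 2 with a library left out, the 2 being *Mga* and *L3mbtl2* without cKO 2, where 14.5% of all genes tested passed. The log2 fold change of *Mga* stayed between 0.56 and 0.61 with all libraries. With the library size equal to the reads on genes, *Max* (-0.0148), *Ring1* (-0.00579) and *Rybp* (-0.0134) changed sign. With a library left out, the log2 fold changes ran from -0.12 to 0.13 for *Max*, from -0.00966 to 0.17 for *E2f6*, from -0.0544 to 0.24 for *Pcgf6*, from -0.21 to 0.17 for *Ring1*, from -0.0668 to 0.0502 for *Cbx3* from -0.0025 to 0.015 for *Rybp* and from -0.126 to 0.818 for the target gene *Sycp3*.

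Counts past the limit with a library left out ran from 0 to 2 for other partners, 0 to 4 for other PRC1 proteins, 0 to 2 for PRC2 proteins, 0 to 3 for E2F genes, 0 to 2 for MAX partners and 3 to 11 for target genes. Of the target genes, 3 passed without Ctrl 1, Ctrl 2, cKO 1 or cKO 3, 10 without Ctrl 3 and 11 without cKO 2. Other PRC1 proteins had 0 calls with the library size equal to the reads on genes and without the intensity trend. E2F genes had 1 call at a pseudocount of 0.1 or 0.5 or a minimum FPKM of 1, and 2 with the library size equal to the reads on genes and under voom. The cause was not tested. Of all genes, 460 were higher and 301 lower with all libraries, 736 and 595 without a minimum FPKM, where more genes are tested, and from 201 to 1457 higher and from 163 to 1036 lower with a library left out, most without cKO 2. With 1 library left out, the difference in share ran from -2.42 to 5.03 percentage points for *Rnf2*, from -2.63 to 1.51 for *Pcgf6*, from -0.655 to 0.696 for *Cbx3*, from -4.45 to -1.56 for *Rybp* and from 2.33 to 3.91 for *E2f6*.

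Deviations from the group mean had correlations across genes of -0.389, -0.03 and 0.117 between samples with the same replicate number. Between samples with different numbers they ran from -0.343 to 0.35, so these values cannot tell whether the numbers pair the libraries. With the replicate number as a block, 0 subunit genes passed, 434 genes were higher and 247 lower, and other PRC1 proteins had 0 calls, since *Scmh1* was lost (limma, unadjusted p = 0.0748). Target genes had 6 calls with the block and 5 without it. The unadjusted p in limma with the block was 2.83e-05 for *Stra8* and 7.46e-05 for *Tuba3a*, with an adjusted p of 0.486 and 0.539. Between 396 and 5404 reads per library stood behind each subunit gene, and the spread over the 6 libraries was larger than counting error gives for every gene but *Rybp*.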
